A study of Mus musculus with 16 samples.

Results

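The miRNAs described here are the 10 mature miRNAs of 7 hairpins in the proximal, anti-Rtl1 portion of the imprinted Dlk1-Dio3 locus on mouse chromosome 12. They are mmu-miR-337-5p, mmu-miR-337-3p, mmu-miR-540-5p, mmu-miR-431-5p, mmu-miR-433-3p, mmu-miR-127-5p, mmu-miR-127-3p, mmu-miR-434-3p, mmu-miR-136-5p and mmu-miR-136-3p, written without the species prefix from here on. The array names 1881 mature mouse miRNAs, of which 495 were detected on at least 8 of the 16 arrays and tested. All 10 members were among these 495, and each was detected on all 16 arrays. They were chosen by name, on the measured difference between Dgcr8+/- and WT signal in these same arrays, in which miR-337 and miR-540 were low and miR-127 and miR-136 were not. The genotype differences of the members are therefore a description and carry no test.

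RNA came from the lateral ventricle (LV) wall, a brain tissue lined by ependymal cells with motile cilia. The groups were 8 WT littermates and 8 Dgcr8+/- mice, all male, 8 months old and on the C57BL/6J background, with 1 mouse per array. The Dgcr8+/- mice lack 1 copy of Dgcr8 in every cell from conception, so the comparison does not isolate any cell type or age. The array carries miRNA probes only, so the Dgcr8 transcript could not be used to check the genotype labels. In bulk tissue, fewer cells of a type and less RNA per cell cannot be told apart.

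Dgcr8 binds the RNase Drosha to form the Microprocessor, which cuts miRNA hairpins out of long nuclear transcripts. Dicer then trims each hairpin, and its 5p or 3p arm is loaded into Argonaute as the mature miRNA. At the Dlk1-Dio3 locus the noncoding RNAs Meg3, anti-Rtl1, Rian and Mirg are made from the maternal chromosome, and many miRNA hairpins lie in them. The anti-Rtl1 hairpins are perfectly complementary to the coding gene Rtl1, which is made from the paternal chromosome and runs on the opposite strand, and several of these miRNAs direct cleavage of Rtl1 RNA. The locus is active in brain and placenta.

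The sequences below show both arms of miR-337 and miR-540-5p, the members with the lowest genotype differences, and both arms of miR-127 and miR-136 for comparison. Capitals mark the seed, bases 2 to 8, which pairs with target RNAs.
miR-337-5p: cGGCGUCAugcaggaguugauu
miR-337-3p: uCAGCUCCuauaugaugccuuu
miR-540-5p: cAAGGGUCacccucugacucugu
miR-127-5p: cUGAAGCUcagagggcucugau
miR-127-3p: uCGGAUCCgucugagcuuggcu
miR-136-5p: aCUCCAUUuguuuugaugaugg
miR-136-3p: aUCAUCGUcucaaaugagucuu
The sequences are from RefSeq on GRCm38.p6, in which all 10 members were matched by name. The 10 members have 10 different seeds, and none of them is shared with another mouse mature miRNA of that table.

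On GRCm38.p6 the 7 hairpins lie on the plus strand in the order Mir337 (chr12:109585789-109585885), Mir540 (chr12:109586080-109586146), Mir431 (chr12:109590447-109590537), Mir433 (chr12:109591715-109591838), Mir127 (chr12:109592846-109592915), Mir434 (chr12:109594506-109594599) and Mir136 (chr12:109595327-109595388). They span 9.6 kb, and all 7 lie within the annotated span of Rtl1. Mir337 and Mir540 are 194 bases apart, and the longest gap between neighbours, 4300 bases, separates Mir540 from Mir431. Mir136 overlaps Mir3071 on the opposite strand by 62 bases. The RNAfold minimum free energy per base ranged from −0.61 kcal/mol for Mir540 to −0.361 for Mir433, and the median of the 1005 mouse hairpins of the table was −0.406. Mir337 (−0.509) and Mir127 (−0.501) were close in this measure.

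The arrays differed in brightness before normalization. The software detected 495 to 540 miRNAs on WT arrays and 467 to 492 on Dgcr8+/- arrays, and the summed signal was 21545400 to 29763400 and 18528900 to 23440600, respectively. Quantile normalization gives each array the same distribution, so every value below is relative to the other miRNAs of its array. Slide 1 held 6 WT and 2 Dgcr8+/- arrays and slide 2 held 2 WT and 6 Dgcr8+/- arrays. The hybridisation spike-ins of Dgcr8+/- replicate 2 had a mean log2 signal of 13.1, and those of WT replicate 6 had 15.4, against 14.3 to 14.7 on the other arrays. Differences without Dgcr8+/- replicate 2 are therefore given beside those of the members. No spot was saturated. The number of arrays limits the precision.

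Both arms of miR-337 were lower in all 8 Dgcr8+/- mice than in any WT mouse. The log2 signal of miR-337-3p was 8.38 at the lowest, 8.52 at the median and 8.61 at the highest in WT mice, and 7.66, 7.84 and 7.99 in Dgcr8+/- mice. Its mean was 8.51 ± 0.09 (SD, n = 8) in WT and 7.83 ± 0.10 (SD, n = 8) in Dgcr8+/- mice, a difference of −0.68 (standard error 0.05) or −37.5% of the signal. The gap between the groups was wider than the whole range of either group. The log2 signal of miR-337-5p, the other arm of the same hairpin, was 6.62, 6.75 and 6.86 (lowest, median and highest) in WT mice and 5.78, 6.06 and 6.17 in Dgcr8+/- mice. The mean difference was −0.73 (standard error 0.06), or −39.5% of the signal. The lowest value of each arm belonged to Dgcr8+/- replicate 2, and without it the differences were −0.65 for miR-337-3p and −0.69 for miR-337-5p.

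The other member with groups that did not overlap was miR-540-5p, from the hairpin next to miR-337. Its log2 signal was 4.28 at the lowest, 4.54 at the median and 4.71 at the highest in WT mice, and 3.34, 3.69 and 3.99 in Dgcr8+/- mice. The mean difference was −0.81 (standard error 0.10), or −42.8%. Its signal was low, and only 1 of its 4 probes was well above background on all 16 arrays, with a log2 difference of −0.80. Without Dgcr8+/- replicate 2 the difference of miR-540-5p was −0.82. For miR-337 both probes of each arm were well above background on all 16 arrays, and their differences were −0.68 and −0.68 for miR-337-3p and −0.74 and −0.72 for miR-337-5p.

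**Figure D1:**
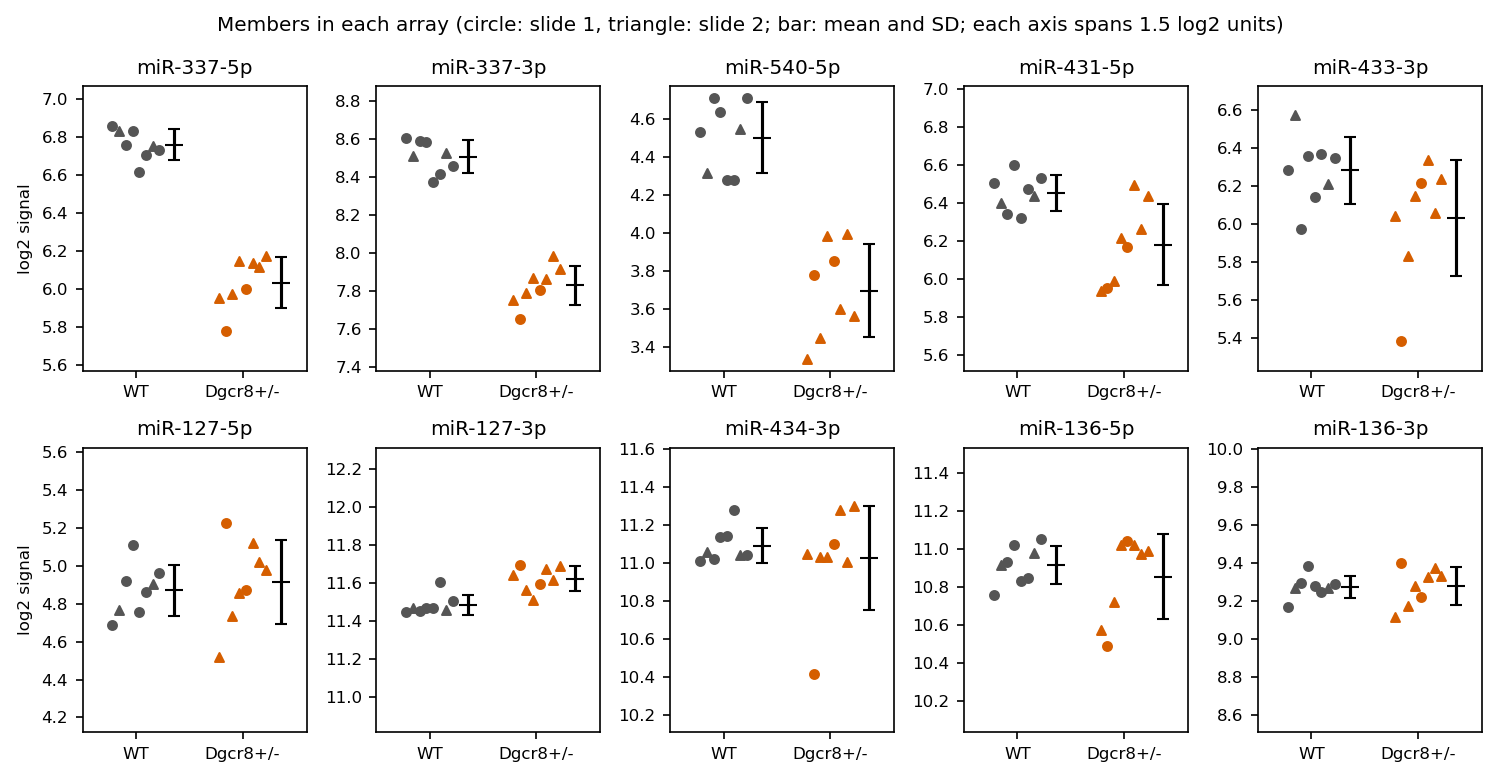
Normalized log2 signal of each member in each of the 16 arrays, in order along the locus; grey points are WT, orange points Dgcr8+/-, circles slide 1, triangles slide 2, and the bar gives the mean and SD of 8 mice. For miR-337-5p, miR-337-3p and miR-540-5p all 8 Dgcr8+/- points lie below every WT point, and for the other 7 members the groups overlap.

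The next member hairpins along the locus, miR-431 and miR-433, had smaller differences with overlapping groups. In WT mice the log2 signal of miR-431-5p was 6.32 at the lowest, 6.46 at the median and 6.60 at the highest. In Dgcr8+/- mice it was 5.93, 6.19 and 6.50, so 6 of 8 lay below every WT mouse. The mean difference was −0.27 (standard error 0.08), and −0.24 without Dgcr8+/- replicate 2. For miR-433-3p the values were 5.98, 6.32 and 6.57 in WT mice and 5.38, 6.10 and 6.34 in Dgcr8+/- mice, with 2 of 8 below every WT mouse. Its difference of −0.25 (standard error 0.12) became −0.16 without Dgcr8+/- replicate 2, which gave the value of 5.38. The group difference of miR-433-3p thus rested partly on 1 array.

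Further along, miR-127-3p was higher in mean signal in Dgcr8+/- mice by a small amount, with overlapping groups. Its log2 signal was 11.45, 11.47 and 11.60 (lowest, median and highest) in WT mice and 11.51, 11.63 and 11.69 in Dgcr8+/- mice. The mean difference was 0.14 (standard error 0.04), or 10.1%, but it was −0.36 with no normalization between arrays and −0.35 with scaling to the labelling spike-ins. Without Dgcr8+/- replicate 2 it was 0.13. Of the 8 Dgcr8+/- mice, 5 lay above every WT mouse, and the highest WT value, 11.60, came from replicate 6. For the dim arm miR-127-5p the values were 4.69, 4.88 and 5.11 in WT mice and 4.52, 4.92 and 5.22 in Dgcr8+/- mice. The difference of miR-127-5p was 0.04 (standard error 0.09), less than its spread within either genotype, and 0.0008 without Dgcr8+/- replicate 2.

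The last hairpins, miR-434 and miR-136, had overlapping groups with differences within their spread. WT values of miR-434-3p were 11.01, 11.05 and 11.28 (lowest, median and highest), and Dgcr8+/- values were 10.42, 11.04 and 11.30. The difference was −0.07 (standard error 0.10) with all arrays and 0.02 without Dgcr8+/- replicate 2, so its sign was set by that array. For miR-136-5p the WT values were 10.76, 10.92 and 11.05 and the Dgcr8+/- values 10.49, 10.98 and 11.04, with a difference of −0.06 (standard error 0.08), or −0.0098 without Dgcr8+/- replicate 2. In miR-136-3p, from the same hairpin, they were 9.17, 9.27 and 9.39 against 9.12, 9.30 and 9.40, with a difference of 0.0038 (standard error 0.05), which was −0.01 without that replicate. The 3 Dgcr8+/- mice below every WT mouse in miR-136-5p were not low in the other arm alike, since 1 lay below every WT mouse in miR-136-3p and another above.

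Members differed in how much the arrays of 1 genotype varied. The pooled SD within genotypes was 0.06 for miR-127-3p, lower than for all but 4.24% of the 495 tested miRNAs, and 0.25 for miR-433-3p, higher than for 79.2%. For miR-337-3p it was 0.09. Each mouse was read on 1 array, so the spread of mice and that of arrays could not be told apart. The percentiles are over miRNAs of all signal levels. The lowest miR-433-3p value, 5.38, came from Dgcr8+/- replicate 2, the array with low hybridisation spike-ins.

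Set out by position, the members' differences were as follows. In Mir337 and Mir540, whose starts lie 0.29 kb apart, the 3 members had differences of −0.81 to −0.68. At 4.66 and 5.93 kb from the Mir337 start, miR-431-5p and miR-433-3p had −0.27 and −0.25. From 7.06 kb on, the 5 members of Mir127, Mir434 and Mir136 lay between −0.07 and 0.14. The median over all 495 tested miRNAs was 0.04. By limma with Benjamini-Hochberg adjustment over the 495, 138 (27.9%) were lower and 140 (28.3%) higher, 56.2% in either direction, and 4 members (miR-337-5p, miR-337-3p, miR-540-5p, miR-431-5p) were among the lower and 1 (miR-127-3p) among the higher. In 17.2% of the tested miRNAs all Dgcr8+/- arrays lay below all WT arrays, as in 3 members, and in 7.07% they lay above, as in 0 members. These counts follow from how the members were chosen. Arms and hairpins in the same stretch that are not members did not all keep to this order. The difference was 0.19 for miR-3070-2-3p at 2.86 kb, detected on 6 arrays of each genotype, and −0.42 for miR-433-5p at 5.94 kb. Those of miR-431-3p (−0.18 at 4.71 kb) and miR-434-5p (0.01 at 8.74 kb) were near the members beside them.

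**Figure D2:**
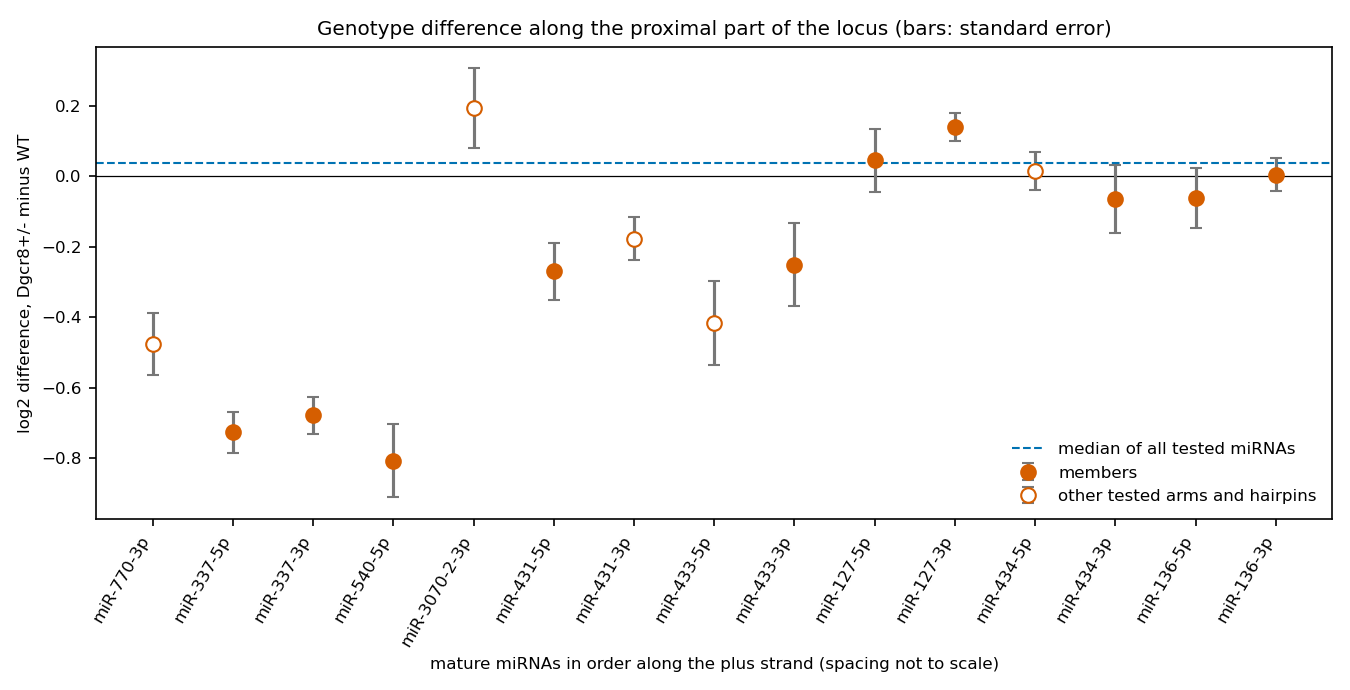
Log2 difference (Dgcr8+/- minus WT, y axis) of the 10 members (filled) and of 5 other tested arms and hairpins (open) in order along the locus, not to scale, with miR-665-3p left out because it was detected on 3 Dgcr8+/- arrays; bars give the standard error and the dashed line the median of all tested miRNAs. The lowest values are those of miR-337-5p, miR-337-3p and miR-540-5p, miR-3070-2-3p between them and miR-431-5p is at 0.19, and those from miR-127-5p on lie between −0.07 and 0.14.

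A ratio within an array does not change when the whole array is multiplied by a constant. Quantile normalization and background correction can change it. The log2 ratio of miR-337-3p to miR-127-3p was lower in Dgcr8+/- than in WT mice by a mean of −0.82, with an SD of 0.12 in WT and 0.13 in Dgcr8+/- mice. The difference in this ratio was −0.84 with no normalization and −0.68 after the normexp correction given below. The ratio is made of the same differences that chose these members, so it is a description, and it does not say which of them changed. With no normalization the difference of the members ranged from −1.20 for miR-337-3p to −0.34 for miR-127-5p, and all 10 were negative. The median of all tested miRNAs then lay at −0.39, against −0.38 with labelling spike-ins and 0.14 where each array was divided by the 75th percentile of its always detected probes. After a normexp correction of the median signal with an offset of 50 signal units, the difference was −0.17 for miR-540-5p, −0.41 for miR-337-5p, −0.55 for miR-337-3p and 0.13 for miR-127-3p. This setting changed the signal column, the background correction and the offset together, and their parts were not told apart.

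**Figure D3:**
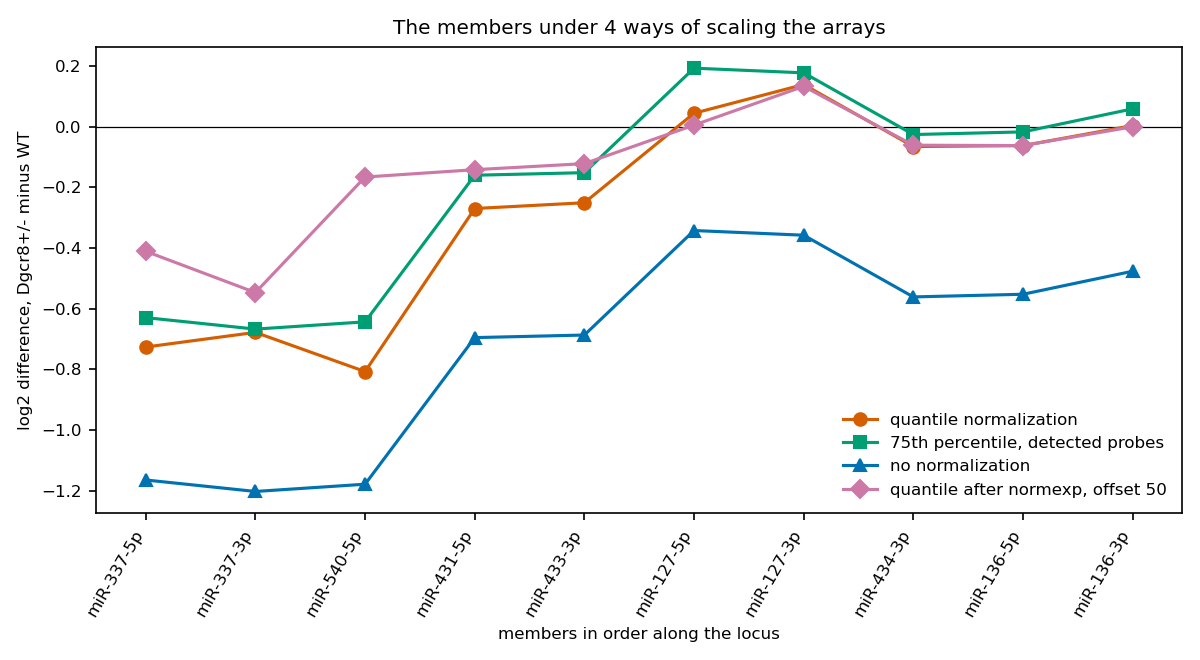
Log2 difference (Dgcr8+/- minus WT, y axis) of each member under 4 ways of scaling the arrays. Without normalization all 10 members are below 0, from −1.20 to −0.34, and in each of the 4 settings miR-337-5p, miR-337-3p and miR-540-5p lie below miR-431-5p and miR-433-3p, which lie below both arms of miR-127.

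The slides gave like values for the miRNAs at the proximal end. The differences were −0.77 on slide 1 and −0.66 on slide 2 for miR-337-3p, −0.86 and −0.71 for miR-337-5p, and −0.71 and −0.78 for miR-540-5p. Slide 1 held only replicates 2 and 5 of the Dgcr8+/- group. For miR-127-3p the difference was 0.15 on both slides. For miR-434-3p the slides differed in sign, with −0.35 on slide 1 and 0.07 on slide 2, and slide 1 held the low value of replicate 2.

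Whether the arms of a hairpin varied together among mice of 1 genotype does not enter the choice of members and was tested. The test was a 2-sided exact permutation test over 8 mice for each of 6 relations, with Benjamini-Hochberg adjustment over the 6. In miR-337 the arms were correlated in both genotypes, with r = 0.849 (adjusted exact p = 0.0233) in WT and r = 0.901 (adjusted exact p = 0.0165) in Dgcr8+/- mice. Spearman's rho was 0.833 and 0.857 (adjusted exact p = 0.0461 for each), and the unadjusted exact p of r was 0.00776 and 0.00275. Without the 2 mice farthest from the median of miR-337-5p, r was 0.639 and 0.774. Within the slide that held 6 mice of the genotype, r was 0.907 in WT and 0.785 in Dgcr8+/- mice, and the other slide held 2 mice, too few for a value.

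The call for miR-337 was sensitive to single arrays and to scaling. In WT mice the adjusted exact permutation p of r was 0.0732 without replicate 1, 0.0714 without replicate 4, 0.143 without replicate 5 and 0.0512 without replicate 7, with r between 0.733 and 0.858. In Dgcr8+/- mice it was 0.0521 without replicate 2 (r = 0.799). With scaling to the 75th percentile of the detected probes, r in Dgcr8+/- mice was 0.499 (adjusted exact permutation p = 0.252). Both arms are read on the same array, so an array-wide shift left by the normalization enters both. The test is against no correlation and does not set the arms apart from miRNAs of other hairpins. Of those picked below for likeness over the 16 arrays, miR-378a-3p had r with miR-337-3p of 0.815 in WT and 0.740 in Dgcr8+/- mice. For miR-379-3p r was 0.514 and 0.901.

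The other hairpins with both arms among the members did not pass in either genotype in the quantile-normalized values of all mice, and passed in some of the alternatives. In miR-136 in WT mice r was 0.754 (exact p = 0.0271, adjusted exact p = 0.0541) and rho 0.714 (exact p = 0.0576, adjusted exact p = 0.115). In miR-136 in Dgcr8+/- mice r was 0.198 (exact p = 0.630, adjusted exact p = 0.756) and rho −0.119 (exact p = 0.793, adjusted exact p = 0.793). In Dgcr8+/- mice r was 0.806 (adjusted exact permutation p = 0.0521) without replicate 2 and −0.207 (adjusted exact permutation p = 0.787) without replicate 1, so single arrays decided it. It passed with no normalization (adjusted exact permutation p = 0.00093) and with the 75th percentile of all probes (0.00801). With no normalization the brightness of the whole array enters both arms, so a pass there, in either genotype, is no support for a relation. How much of it another scaling leaves was not tested. In WT mice the relation passed without WT replicate 8 (adjusted exact permutation p = 0.0318) and without Dgcr8+/- replicate 1 (0.0476), the latter through the adjustment over the 6. It also passed in 5 of the 7 other settings, which were the 75th percentile of the detected probes (0.00149), cyclic loess (0.00938), outlier spots kept (0.0214), no normalization (0.00093) and the 75th percentile of all probes (0.00134). With the authors' total gene signal r was 0.223, and without WT replicate 1 it was 0.548. Within the slide of 6 mice r for miR-136 was 0.796 in WT and 0.930 in Dgcr8+/- mice, and without the 2 farthest mice it was 0.697 and 0.583.

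For miR-127 the relation did not pass either. In WT mice r was 0.103 (exact p = 0.793, adjusted exact p = 0.793) and rho 0.371 (exact p = 0.365, adjusted exact p = 0.438). In Dgcr8+/- mice r was 0.471 (exact p = 0.239, adjusted exact p = 0.359) and rho 0.643 (exact p = 0.0962, adjusted exact p = 0.144). Without replicate 1, r in Dgcr8+/- mice was 0.804 (adjusted exact permutation p = 0.0476). In WT mice the miR-127 arms passed with no normalization (adjusted exact permutation p = 0.0028) and with the 75th percentile of all probes (0.00301). Array brightness enters both arms in the former, so that pass is no support for a relation. Within the slide of 6 mice r was 0.0867 and 0.304, and without the 2 farthest mice it was 0.101 and 0.744. Over 8 mice, a p that misses the threshold does not show that the arms vary apart. Whether the hairpins differ from each other in this correlation was not tested.

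**Figure D4:**
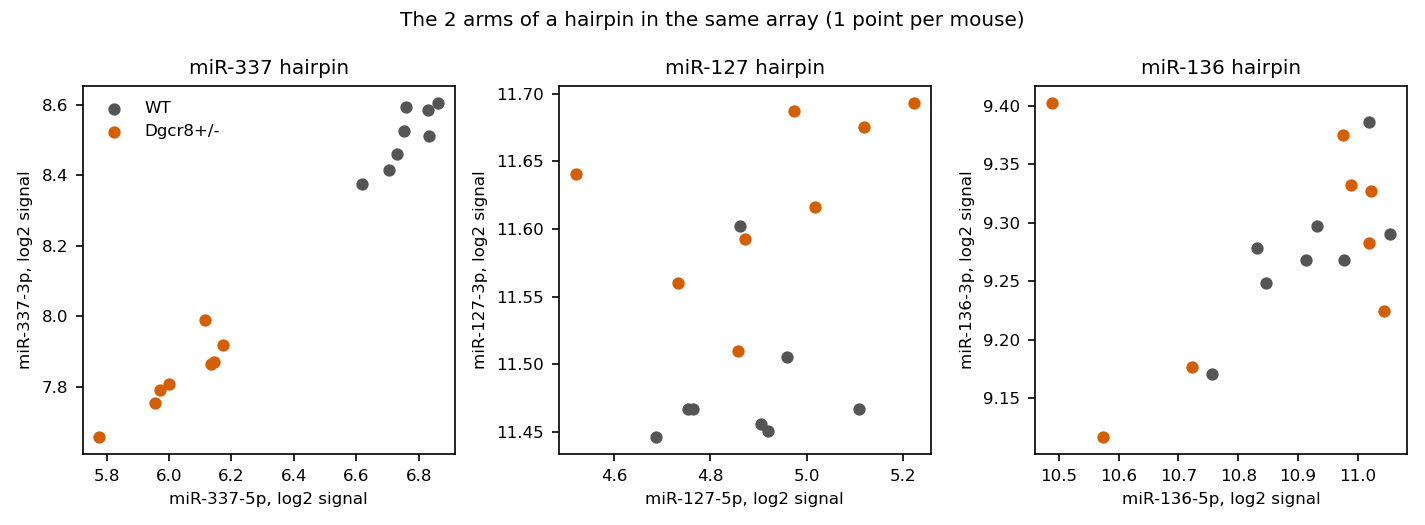
Log2 signal of the 3p arm (y axis) against the 5p arm (x axis) of the miR-337, miR-127 and miR-136 hairpins, 1 point per mouse, grey for WT and orange for Dgcr8+/-. For miR-337 the genotypes form separate clusters and r within them is 0.849 and 0.901, and for miR-127 and miR-136 the genotypes overlap.

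The ratio of the arms differed between genotypes by about its spread or less. The log2 ratio of 3p to 5p was higher in Dgcr8+/- mice by 0.05 for miR-337, 0.09 for miR-127 and 0.07 for miR-136, against within-genotype SDs of 0.05 to 0.06, 0.14 to 0.20 and 0.07 to 0.23. The Dgcr8+/- range of the miR-337 ratio, 1.72 to 1.88, overlapped the WT range, 1.68 to 1.84. These ratios have meaning only as a difference between genotypes, since the probes of the arms differ.

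Arms that the members leave out were compared by limma. The log2 difference was −0.18 for miR-431-3p (standard error 0.06, adjusted p = 0.0200 by limma) and −0.42 for miR-433-5p (standard error 0.12, adjusted p = 0.00731 by limma). Both were lower in the quantile-normalized values, as was the other arm of each in mean. That of miR-434-5p was 0.01 (standard error 0.06, adjusted p = 0.846 by limma). The median of these 3 arms, −0.18, depended on the scaling. It was −0.04 with the 75th percentile of the detected probes, −0.04 after the normexp correction and −0.57 with no normalization. The signal of miR-431-3p was low, with a WT mean of 4.48. The partner of miR-540-5p, miR-540-3p, was detected on 2 WT and 0 Dgcr8+/- arrays and was not tested.

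Of the other proximal hairpins, 14 mature miRNAs are on the array, and 11 of them were detected on no array. Upstream of Mir337, miR-770-3p, whose hairpin lies in Meg3, had a log2 difference of −0.48 (standard error 0.09, adjusted p = 0.000242 by limma). The hairpin of miR-665-3p lies between those of miR-540 and miR-431. It was detected on all 8 WT and 3 Dgcr8+/- arrays and reached the minimum of 8 arrays through the WT group, so no difference is given. The signal of miR-3070-2-3p, detected on 6 arrays of each genotype, gave 0.19 (standard error 0.11, adjusted p = 0.151 by limma).

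Farther along the locus most of the tested Rian and Mirg miRNAs were lower. In Rian 2 of 2 tested miRNAs were lower by limma, miR-341-3p by a log2 difference of −0.41 and miR-370-3p by −0.35. In Mirg 41 of 76 were tested, of which 36 were lower, 2 were higher and 3 did not pass, where 27.9% of all tested miRNAs were lower. The Mirg median was −0.44 against 0.04 for all tested. The lowest of these was miR-299a-3p, detected on all 8 WT and 0 Dgcr8+/- arrays and too dim for a fold. It reached the minimum of 8 arrays through the WT group, as did miR-134-5p, detected on 8 WT and 4 Dgcr8+/- arrays. Both are among the 36, and their calls are no support for a difference. The highest Mirg difference was that of miR-494-3p with 0.42. Without normalization or with spike-in scaling none of the 41 differences was above 0. These lists hold a given stretch of the locus, and their counts do not compare them with the members. Proximal and distal hairpins share the mice and the arrays.

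Patterns across the 16 arrays were compared by Pearson's r of log2 signal among the tested miRNAs that are not members. The members, miR-337-5p among them, were left out of this search. Most like miR-337-3p were miR-378a-3p (r = 0.985), miR-411-3p (r = 0.982) and miR-379-3p (r = 0.982). Within WT mice r was 0.815, 0.669 and 0.514, and within Dgcr8+/- mice 0.740, 0.879 and 0.901. The values over 16 arrays hold the genotype difference itself. For miR-127-3p the nearest were miR-1895 (r = 0.868), miR-7082-5p (r = 0.854) and miR-2137 (r = 0.840).

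Marker miRNAs of the cell types that the LV wall could hold were measured on the same arrays. The 6 neuronal markers had a median difference of 0.07, with 1 lower and 1 higher by limma. The log2 of their summed signal was 15.07 to 15.22 in WT and 15.13 to 15.27 in Dgcr8+/- mice. In that sum the brightest marker, miR-124-3p (WT mean log2 signal 14.1), weighs most. All 5 ciliated cell markers were detected and none passed, with differences of 0.15 to 0.35 and a median of 0.29, which was −0.19 without normalization and −0.18 with spike-in scaling. The log2 of their summed signal was 9.08 to 10.3 in WT and 9.76 to 10.6 in Dgcr8+/- mice. Of the choroid plexus markers 1 of 2 tested was lower. The log2 of the summed signal of these 2 was 9.06 to 9.52 in WT and 8.66 to 9.29 in Dgcr8+/- mice. Of the red blood cell markers 1 of 3 was lower, miR-486a-5p, which was detected on 8 WT and 3 Dgcr8+/- arrays. It reached the minimum of 8 arrays through the WT group, so its call is no support for a difference. The other red blood cell markers, miR-451a and miR-144-3p, were detected on 8 arrays of each genotype and did not pass. Of the blood vessel markers 2 of 4 were higher, of the oligodendrocyte markers 1 of 3 was higher, and of the microglia and immune markers 1 of 4 was lower and 1 higher. Over all tested miRNAs 27.9% were lower and 28.3% higher. The part of these markers in the members' differences was not tested.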

How the data were processed

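The authors extracted total RNA from the LV wall with the mirVana kit, labelled 100 ng with Cy3 and hybridised 1-colour Agilent mouse miRNA arrays. The labels give Feature Extraction 10.5.1.1 and the file headers 10.7.3.1. The deposited values are spot intensity after background subtraction by that software, with no normalization between arrays. The deposited value table equals the total gene signal per miRNA (largest difference 0 over 1881 miRNAs).

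From these intensities, spots marked as outliers were left out, spots were averaged per probe, and the 4415 probes were quantile-normalized as the methods state. Probes were averaged per miRNA, set to at least 1 signal unit and log2-transformed. A miRNA detected on at least 8 of 16 arrays was tested. Each member has 30 spots per array. Genotypes were compared with limma 3.58.1 in R 4.3.3 with Benjamini-Hochberg adjustment, called at 0.05. Arm correlations used exact permutation (40320 orderings, scipy 1.17.1). Both were tested on simulated data. Hairpins were folded with RNAfold 2.7.2. Sequences are from RefSeq on GRCm38.p6. The array design's headers name mm9, and no coordinates were taken from it.

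Samples were grouped by the labels' genotype, and the labels call them biological replicates. The limma p-values set the genotype difference against the spread among the 16 mice within genotypes, in a model without slide. Those of the arm correlations come from 8 mice of 1 genotype each. Replicate numbers were not used to pair the samples. Correlations of same-numbered deviations ran from −0.14 to 0.50, with 5 of 8 over 0.1. They were not set beside those of differently numbered mice, so they do not decide whether the numbers pair mice. The members and the lists were chosen with earlier results of these data known. The text names all members, the other arms of their hairpins, the detected other proximal miRNAs and both tested Rian miRNAs. It also names the lowest and highest Mirg values, and the 3 non-members most alike to miR-337-3p and to miR-127-3p. Naming both Rian miRNAs follows from there being only 2. Alternatives covered scaling, background, spots, floor, filters, slide, replicate block, single arrays and the methods' t-test. The normexp correction used the median signal, since the spot columns used here give a median signal.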

Additional observations from a re-analysis of the deposited data

Results flagged for a closer look

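Among the 20 sets of 8 values formed by 10 members in each genotype, 2 had a value far from the other 7, and chance gives about 1 in 20. The log2 signal of miR-127-3p was 11.6 in WT replicate 6, with the next WT value at 11.51 and the lowest at 11.45. The log2 signal of miR-434-3p was 10.42 in Dgcr8+/- replicate 2, with the other 7 values from 11.01 to 11.30. Both arrays also had the most extreme hybridisation spike-ins, 15.4 and 13.1, and the part of this in the values was not tested.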

How the results depend on the processing

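The 3 members with groups that do not overlap stayed at 3 with each array left out, were 2 with the 75th percentile of the detected probes, and were 4 without normalization or with spike-in scaling. The median difference of the members, −0.16, was −0.62 without normalization, −0.61 with spike-ins and −0.38 within slide 1, and −0.20 to −0.09 with each array left out. The 138 lower and 140 higher miRNAs became 293 and 0 without normalization and 262 and 0 with spike-ins. At an unadjusted p of limma under 0.05, 0 were higher in both. With each array left out there were 130 to 151 lower and 126 to 170 higher, and with the methods' t-test at their thresholds 88 and 51. Scaling to the 75th percentile of the detected probes gave 126 lower and 210 higher, or 37.5% lower among the calls against 49.6%. The difference of miR-127-3p turned to −0.36 without normalization and −0.35 with spike-ins, and the cause was not tested. Of the 6 arm correlations 2 passed, 5 without normalization or with the 75th percentile of all probes, and 1 to 4 with each array left out. Array brightness enters both arms where there is no normalization, so the passes in that setting are no support for a relation. The replicate block gave 140 lower and 147 higher; with 1 mouse of each genotype per number it leaves every difference, and the member median of −0.16, as it was by construction. Signal over background limits miR-540-5p and miR-127-5p.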
